A study of Mus musculus with 8 samples.

Results

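Both Valpha2 arrays were compared with both overnight control arrays, 4 of the 8 arrays of a series on engagement of the T cell receptor (TCR) with antibodies. All 4 held total RNA of mouse double positive thymocytes, and the members were taken from the array titles. Each group had 1 array titled Data 1 and 1 titled Data 2. Valpha2 names a variable segment of the TCR alpha chain, and the overnight control is named without an antibody. The labels give no strain, age, TCR transgene, antibody clone, dose or exact time. They do not say that the arrays came from separate cultures or animals. The p-values here thus rest on array-to-array spread alone, and that spread may be technical in part. Sex-linked genes, given below, differed between the 2 overnight control arrays. The other 4 arrays, 2 titled control and 2 titled Vbeta5 (a beta chain segment), entered the estimate of the spread.

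Double positive thymocytes carry both coreceptors, CD4 and CD8, and still express the recombinase genes Rag1 and Rag2 with which they assemble the TCR alpha gene. Engagement of the TCR starts a kinase cascade (Lck, Zap70, calcium and MAP kinase) that within hours switches on immediate early transcription factors such as Egr1, Egr2 and Nr4a1, and later surface proteins such as CD5, CD69 and PD-1. Weak signals let the cell mature and shut off Rag1 and Rag2, and strong ones can delete it. Type I interferon acts through a separate receptor and factors that include Irf9, and switches on genes such as Isg15.

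The labelled cell type was checked on its markers. Cd8b1 (a coreceptor chain), Dntt (the enzyme that adds bases at V(D)J joints) and Rag1 (a recombinase subunit) had signals between 9392.4 and 15480.0 on the 4 arrays, and Cd4 had 1985.5 and 3189.5 on the overnight control arrays and 1527.6 and 2365.2 on the Valpha2 arrays. Each of these lay above the 88th percentile of its array. On the same arrays Cd8a and Cd3e had signals between 2445.8 and 8257.1, Cd1d1 between 594.5 and 1037.0, and Rag2 between 692.3 and 1184.8. Ptcra, a chain of the pre-TCR, was dim, with 103.4 and 176.4 on the overnight control arrays and 94.8 and 83.0 on the Valpha2 arrays. The median signals of these arrays were 110.35 and 77.95, and 91.6 and 81.4. Markers of 8 other cell types were measured too. The brightest was Ighm, the immunoglobulin mu chain, with 4487.9 and 3698.6 on the overnight control arrays and 4107.2 and 4105.5 on the Valpha2 arrays, and Tfrc, a transferrin receptor of erythroid and dividing cells, followed with 866.5 and 631.7 against 621.0 and 885.0. The summed signal of the 15 fibroblast and endothelium markers was 2610.9 and 1179.4 on the overnight control arrays and 1612.0 and 1360.6 on the Valpha2 arrays. The first overnight control array had the highest sum of the 4 for all 8 lists. It also had the highest median signal of the 4. Of its values 12.24% lay under 17, against 24.17% on the second overnight control array and 15.75% and 22.51% on the Valpha2 arrays. Whether the sums reflect other cells or this general rise of dim signals was not tested, nor was the part of either in the results.

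The arrays stood apart from each other in 2 further ways. The 3′ to 5′ ratio of the Gapdh control probe sets, a measure of RNA length, was 1.72 on the log2 scale on the Data 1 Valpha2 array and 0.95 on the Data 1 overnight control array, against -0.26 and -0.24 on the Data 2 arrays. The deposited signals of both Data 1 arrays also correlated less with the other arrays: the log2 signals of the Data 2 pair correlated at r = 0.965 over 8281 probe sets, those of the Data 1 pair at 0.904, and those of the overnight control pair at 0.864. The sex-linked genes differed too. Xist, the RNA of the inactive X, had signals of 26.6 and 1771.6 on the overnight control arrays and 35.6 and 15.9 on the Valpha2 arrays. The Y-linked gene Eif2s3y had 303.0 and 9.2 on the overnight control arrays and 478.8 and 411.5 on the Valpha2 arrays. The Data 2 Valpha2 array was thus unlike the Data 2 overnight control array in both genes. The 2 overnight control arrays were also unlike each other in both, as repeat arrays of 1 RNA sample would not be. Of the dimmer Y-linked genes, Uty had 80.9 and 5.6 against 57.3 and 26.4, and Kdm5d 69.0 and 11.2 against 45.7 and 7.5. Kdm5d was thus low on the Data 2 Valpha2 array too. The labels give no sex, these genes were chosen after their values were seen, and the part of these differences in the results was not tested.

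No probe set passed the test. In bulk samples such as these, fewer cells with a transcript and less RNA per cell cannot be told apart. Of 8281 tested probe sets, 0 were higher (0%) and 0 lower (0%) with Valpha2 at a Benjamini-Hochberg adjusted p of 0.05 by limma, with the smallest adjusted p at 0.99999. Without adjustment, 60 were higher (0.725%) and 72 lower (0.869%) at p under 0.05. Both Valpha2 arrays lay above both overnight control arrays for 872 probe sets (10.5%), and below both for 844 (10.2%). All differences here are on the log2(signal + 17) scale, which understates the change of dim probe sets, and with 2 arrays a group the smallest two-sided p of an exact permutation test is 0.333. Of the settings tried, 1 gave a call: without the Data 2 Valpha2 array, 1 of 3 Eif4ebp2 probe sets was lower with an adjusted p of 0.0231 (limma), with signals of 553.2 and 623.8 on the overnight control arrays and 59.6 and 458.8 on the Valpha2 arrays. Eif4ebp2 encodes a repressor of cap-dependent translation, and its other probe sets differed by 0.05 and -0.21. The count at unadjusted p under 0.05, 132 with all arrays, was 1107 without the Data 2 overnight control array (smallest adjusted p 0.0944 by limma), 209 without the Data 1 one, 274 without the Data 2 Valpha2 array and 111 without the Data 1 one.

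The differences under Data 1 and Data 2 did not run together across probe sets. Over 8281 probe sets the Valpha2 minus overnight control difference under Data 1 and that under Data 2 correlated at r = -0.126 (Spearman rho -0.160), and 43.4% of the probe sets had the same sign in both. Probe sets are not independent replicates, so no p is given. The spread was wider under Data 1 (SD 0.701) than under Data 2 (SD 0.446). Under Data 1, 375 probe sets were at least 2-fold higher and 796 at least 2-fold lower, and under Data 2 the counts were 211 and 132. At least 2-fold in the same direction in both were 18 higher (0.217%) and 17 lower (0.205%), while 62 (0.749%) differed at least 2-fold in opposite directions. At 4-fold, 0 agreed and 1 was opposite. The 2-fold count for Vbeta5 against the same overnight control arrays was 112 higher, 84 lower and 91 opposite, and the 2 comparisons share their control arrays.

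**Figure D1:**
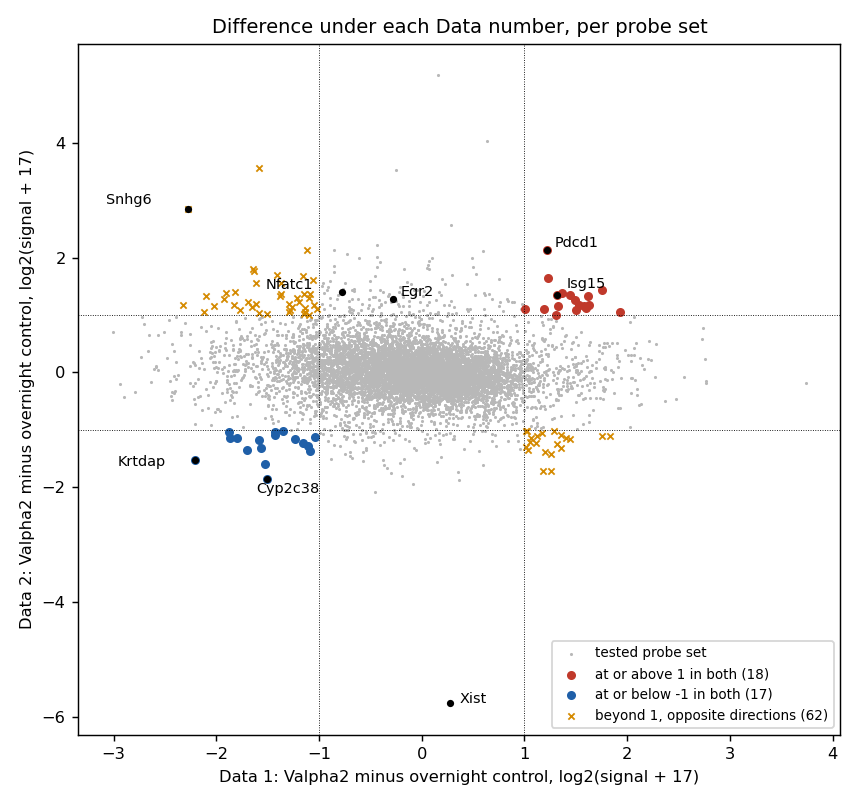
Each point is 1 of 8281 tested probe sets, with the Valpha2 minus overnight control difference under Data 1 on the horizontal axis and under Data 2 on the vertical axis, both on the log2(signal + 17) scale, and dotted lines at a 2-fold difference. The 18 probe sets at least 2-fold higher in both are red, the 17 lower in both blue and the 62 opposite ones orange, and 8 genes are named, of which Xist lies at -5.76 under Data 2.

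Agreement at 2-fold lay mainly among dim probe sets. Of the 35 that agreed, 29 were in the dim group when the tested probe sets were split by mean signal into 3 groups of near equal size (dim, 40.3 to 116.8), 5 in the middle group and 1 in the bright group (from 351.6 up). In the bright group the 2 differences correlated at r = -0.247, and 39 probe sets were at least 1.5-fold apart in opposite directions against 4 higher and 5 lower in both. Probe sets whose name carries a letter for shared, family or relaxed design rules made up 9 of the 17 lower ones (52.9%) and 1 of the 18 higher ones (5.56%), against 20.4% of all tested. Of the agreeing genes, 5 had another tested probe set, and for 4 of them (Grn, Lcat, Ndel1 and Thyn1) a fit on another had the opposite sign, for example 0.59 for Grn and -0.34 for Lcat.

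Among the genes higher in both, Pdcd1 (PD-1, an inhibitory receptor that appears on T cells after TCR engagement) had the largest Data 2 difference. Its signal was 13.3 and 27.8 on the overnight control arrays and 53.3 and 179.2 on the Valpha2 arrays under Data 1 and Data 2. The groups did not overlap, and the differences were 1.21 under Data 1 and 2.13 under Data 2. The fit gave 1.67 ± 0.62 (SE, n = 2 against 2), with a 95% interval from 0.30 to 3.05, or 1.23-fold to 8.26-fold in signal + 17, and an adjusted p of 1.00 by limma. Leaving out 1 array at a time moved it between 0.93 and 2.41. Against the same overnight control arrays Pdcd1 was 4.46 higher with Vbeta5, with signals of 552.7 and 1133.3. On the 2 arrays titled control Pdcd1 had 62.7 and 13.9, so the Data 1 control array lay above the Data 1 Valpha2 array.

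Isg15, a ubiquitin-like protein induced by interferon, had nearly equal differences under both Data numbers. Its signal was 72.0 and 130.5 on the overnight control arrays and 204.1 and 357.8 on the Valpha2 arrays. Both Valpha2 arrays lay above both overnight control arrays, by 1.31 under Data 1 and 1.35 under Data 2. The fit was 1.33 ± 0.48 (95% interval 0.26 to 2.40, unadjusted p = 0.019, adjusted p = 1.00 by limma). With Vbeta5 the difference from the same control arrays was 1.36 (adjusted p 0.39 by limma).

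The promoters of Isg15, the interferon gene at least 2-fold higher in both, and of Egr2, an early TCR gene that was not, are printed here to show the sites known for each pathway, taken from RefSeq (GRCm38.p6, 250 bases before to 50 after the listed start). In Isg15, on the minus strand at chr4:156200769-156201068, capitals mark 3 overlapping matches to the interferon-stimulated response element searched on both strands as GAAA, any 2 bases, and GAAA again, 57 to 78 bases before the start. In Egr2, on the plus strand at chr10:67537619-67537918 for 1 of its 5 listed starts, capitals mark a CArG box, the site that serum response factor is known to bind, 63 to 72 bases before the start. Of all 32851 listed promoters, 3.44% held the first motif and 1.63% the CArG box. By gene, 13 of 27 of the interferon response list held the first motif at any listed start. The CArG box was found in only 2 of 20 genes of the early TCR response list, of which Egr2 is 1. A match is a description of the letters, and binding was not measured.
Isg15: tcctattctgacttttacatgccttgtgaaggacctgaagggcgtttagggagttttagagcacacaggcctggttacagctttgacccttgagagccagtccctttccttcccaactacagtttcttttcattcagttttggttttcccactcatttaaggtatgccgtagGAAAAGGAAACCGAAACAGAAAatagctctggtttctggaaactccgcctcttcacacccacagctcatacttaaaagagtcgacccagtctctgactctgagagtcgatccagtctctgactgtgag
Egr2: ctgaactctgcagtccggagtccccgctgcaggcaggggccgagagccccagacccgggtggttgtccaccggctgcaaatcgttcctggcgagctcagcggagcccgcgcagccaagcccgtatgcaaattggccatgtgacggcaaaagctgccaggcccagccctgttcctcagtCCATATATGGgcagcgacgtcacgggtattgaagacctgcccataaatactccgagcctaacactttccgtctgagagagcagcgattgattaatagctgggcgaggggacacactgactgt

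Most other genes at least 2-fold higher in both had a low mean signal. Of the 18 probe sets, 6 (Wfdc18, Slc6a12, Wnt3a, Actl6b, Lcat and Tubb2a-ps2) passed the filter on dim probe sets only through the Valpha2 arrays. Their mean over all the other arrays lay under the lowest tested mean of 40.3. They thus had to be higher on the Valpha2 arrays than that mean, which favours a difference from the overnight control. Cd59a, an inhibitor of complement on the cell surface, had signals of 36.1 and 51.0 on the overnight control arrays and 185.8 and 124.2 on the Valpha2 arrays, a fit of 1.49 ± 0.46. Vax2, a homeobox factor of the eye, had 39.8 and 16.7 against 116.5 and 88.4. Nrgn, a calmodulin-binding protein, had 13.8 and 8.6 against 75.1 and 40.0. In each of these the Valpha2 arrays lay above the overnight control arrays. Nos1 (a nitric oxide synthase) had 35.5 and 12.8 on the overnight control arrays against 144.3 and 57.8 on the Valpha2 arrays. Kng1 (kininogen) had 33.2 and 52.6 against 137.8 and 140.9, and Lcat (a plasma enzyme that esterifies cholesterol) had 25.4 and 18.1 against 102.3 and 67.5. Slc6a12 (a betaine transporter), Wfdc18 and Lrrfip2 likewise lay above on both Valpha2 arrays, with fits of 1.37, 1.60 and 1.24. With Vbeta5 the fits against the same overnight control arrays were 1.52 for Cd59a, 1.31 for Vax2, 2.17 for Nrgn and 1.22 for Slc6a12. Their adjusted p lay between 0.19 and 0.68 by limma. The fits were 0.72 for Nos1, 0.65 for Lcat, 0.52 for Wfdc18, 0.38 for Lrrfip2 and 0.09 for Kng1. None of these Vbeta5 fits passed the test, and the genes were chosen in part for low signals on these shared control arrays. On the 2 arrays titled control, Vax2 had signals of 90.1 and 84.9. Also higher at 2-fold in both were Wnt3a, Lysmd2, Actl6b, Gnb4, Mrps16, Tubb2a-ps2 and 6330403K07Rik, which were named after their values were seen.

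Of the 17 probe sets lower in both, 4 (H2-DMb2, Grn, Ndel1 and 1 without a gene name) passed the filter only through the overnight control arrays. Cyp2c38, a cytochrome P450, had signals of 105.0 and 104.6 on the overnight control arrays and 25.9 and 16.6 on the Valpha2 arrays, with the smallest p of all tested probe sets (0.0027 unadjusted, adjusted p 1.00 by limma) and a fit of -1.68 ± 0.43. Its probe set is of the family type, which can read several cytochrome genes. Krtdap, a keratinocyte protein, had 141.7 and 90.7 against 17.3 and 20.4 (fit -1.87). Rps13, a ribosomal protein, had 111.2 and 86.0 against 22.4 and 23.6 on a probe set of relaxed design (fit -1.52). Lsr, a lipoprotein receptor, had 129.5 and 75.3 against 33.8 and 13.7, and Shmt1, which feeds one-carbon metabolism, 60.5 and 64.3 against 19.5 and 14.6. In all of these the Valpha2 arrays lay below the overnight control arrays. H2-DMb2 (an MHC class II peptide loader), Grn (progranulin), Tub, Thyn1 and Ndel1 also lay below on both, with fits between -1.20 and -1.46. H2-DMb2 was about as low on the arrays titled control (25.7 and 15.7) as on the Valpha2 arrays (19.4 and 37.6). Grn was not, with 53.3 and 64.3 against 8.7 and 23.2. Ifitm1, an interferon-induced membrane protein, was lower by 1.16 and 1.23, but its groups overlapped: 214.1 and 61.5 against 86.5 and 16.4. Reck, Ndrg4, Zfp94 and 3 probe sets without a single gene name completed the 17 and were named after their values were seen.

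Other genes differed in the same direction in both without reaching 2-fold in both. Irf9, a DNA-binding factor of the interferon response, had signals of 574.1 and 404.6 on the overnight control arrays and 927.1 and 786.3 on the Valpha2 arrays. Its fit was 0.80 ± 0.28, with differences of 0.68 under Data 1 and 0.93 under Data 2 and an adjusted p of 1.00 by limma. Cpt1a, which imports fatty acids into mitochondria, had 721.4 and 867.8 against 1317.8 and 1332.0 (fit 0.73 ± 0.23). Retreg1, an endoplasmic reticulum protein of autophagy, had 233.9 and 265.7 against 486.1 and 447.7 (fit 0.86 ± 0.24). For all 3 the arrays of the groups did not overlap. Akr1c13, an aldo-keto reductase, was the other gene at least 1.5-fold higher in both in the bright group, with 188.5 and 315.0 against 338.7 and 499.9. Lower in both there were Ptpre (a tyrosine phosphatase; 1070.2 and 672.9 against 696.5 and 424.1, which overlap), Zfp94 and 3 probe sets without a single gene name. Cnot4, a ubiquitin ligase linked to the deadenylase complex, had 240.2 and 208.5 against 89.5 and 95.8 (fit -1.14), and the immunoglobulin segment Ighv1-54 had 198.5 and 111.5 against 38.3 and 63.7. Ndufb2 (complex I) differed by 0.67 on 1 probe set and by 0.11 on another.

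By the smaller of the 2 differences, the opposite set was led by Snhg6, a small nucleolar RNA host gene. Its signal was 730.0 and 129.9 on the overnight control arrays and 137.6 and 1042.2 on the Valpha2 arrays, a difference of -2.27 under Data 1 and 2.85 under Data 2. Tmem129 had 713.7 and 19.0 against 226.4 and 408.6 on 1 probe set (differences of -0.26 and 0.04 on another), and Ldb2 had 388.0 and 27.2 against 115.1 and 112.4. Rap1gap and Msi1 were the other genes with the largest opposite differences. In each of these 5 the Data 1 overnight control array was above the Data 2 one, and of the 62 opposite probe sets 41 were higher under Data 2 and 21 under Data 1.

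Of 28 genes chosen for TCR response and thymocyte stage, 24 had a tested probe set, and 0 passed the test. Of these, 6 were higher and 6 lower under both Data numbers, beside 21.4% higher and 21.5% lower of all 6102 genes. Egr1 and Egr2 were in neither set. Egr1, a zinc finger factor of the first wave, had signals of 765.4 and 647.6 on the overnight control arrays and 720.4 and 934.1 on the Valpha2 arrays, which overlap. Its difference was -0.09 under Data 1 and 0.52 under Data 2, and the fit was 0.22 with a 95% interval from -0.28 to 0.72. Egr2, a factor of the same family, had 343.9 and 210.3 against 279.8 and 535.5, with differences of -0.28 and 1.28 and a fit of 0.50 (-0.30 to 1.30). Leaving out 1 array at a time moved Egr1 between 0.032 and 0.40, and Egr2 between 0.051 and 0.95. Against the same control arrays the Vbeta5 differences were 1.92 for Egr1 and 3.21 for Egr2 (adjusted p 0.011 for both by limma). These values lie outside the Valpha2 intervals, but the 2 antibodies were not tested against each other.

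Under Data 2, several early TCR genes had their highest signal of the 4 arrays on the Valpha2 array. Nr4a1, an orphan nuclear receptor, had 533.9 and 778.3 on the overnight control arrays and 342.4 and 1444.9 on the Valpha2 arrays. Nfatc1, a factor activated by calcium, had 317.4 and 249.4 against 178.6 and 683.3. Nab2, a corepressor of the Egr factors, had 323.3 and 344.7 against 223.3 and 704.4. In all 3 the Data 1 Valpha2 array was the lowest of the 4, so the differences were -0.62, -0.77 and -0.50 under Data 1 and 0.88, 1.39 and 1.00 under Data 2. The fit for Nr4a1 was 0.13 (-1.04 to 1.31) and that for Nfatc1 was 0.31 (-0.77 to 1.39). Leaving out 1 array at a time moved Nr4a1 between -0.88 and 1.14, and Nfatc1 between -0.61 and 1.23, lowest for both without the Data 2 Valpha2 array.

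**Figure D2:**
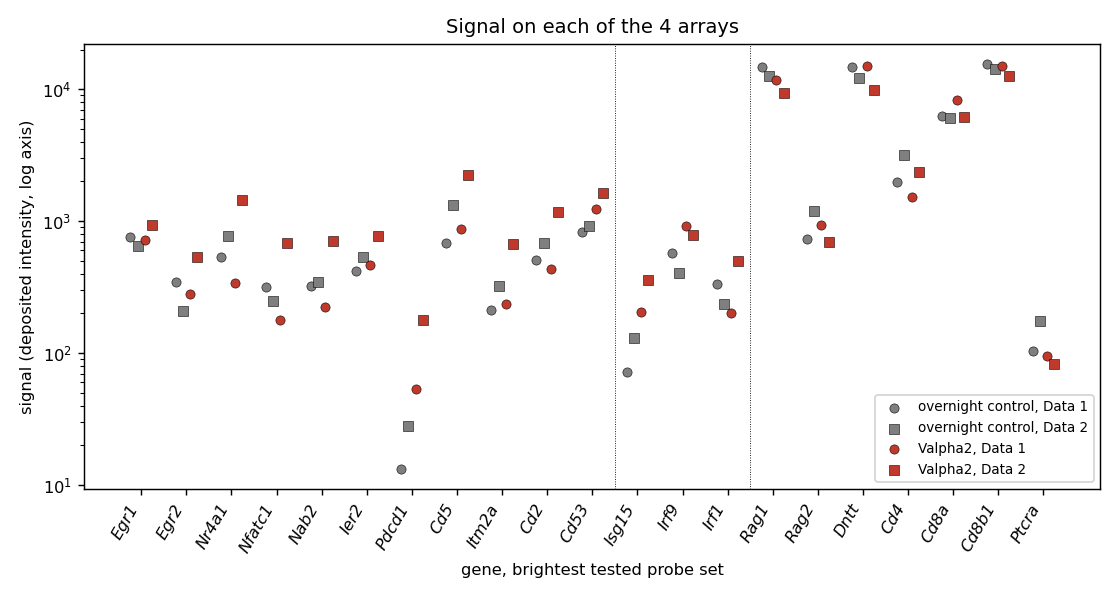
Deposited signal on a log axis for 21 genes on the 2 overnight control arrays (grey) and the 2 Valpha2 arrays (red), with circles for Data 1 and squares for Data 2. Dotted lines separate the TCR response and maturation genes, the interferon genes and the double positive stage genes, and Nr4a1, Nfatc1 and Nab2 show the Data 1 Valpha2 array lowest and the Data 2 one highest.

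Of the surface proteins of thymocyte maturation, Cd5, Itm2a and Cd2 also had their highest signal on the Data 2 Valpha2 array, while Cd27 and Ccr7 had theirs on the Data 1 Valpha2 array and Il7r on the Data 1 overnight control array. Cd5, a brake on TCR signalling, had signals of 684.9 and 1327.0 on the overnight control arrays and 869.7 and 2239.5 on the Valpha2 arrays. Itm2a, a membrane protein of positive selection, had 214.0 and 325.1 against 236.8 and 672.5. Cd2, an adhesion receptor, had 507.6 and 688.0 against 434.1 and 1176.2. The groups overlapped for all 3, with fits of 0.54, 0.57 and 0.27, and leaving out 1 array at a time moved Cd5 between -0.13 and 1.22, Itm2a between -0.15 and 1.29, and Cd2 between -0.43 and 0.97, lowest without the Data 2 Valpha2 array. Cd53, a tetraspanin of leukocytes, differed from these in that both Valpha2 arrays were above both control arrays. Its signals were 833.1 and 922.3 against 1238.7 and 1646.3, and its fit was 0.69 ± 0.25 (0.15 to 1.24, unadjusted p = 0.017, adjusted p 1.00 by limma). With Vbeta5 the Cd53 difference was 2.40.

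The 7 double positive stage genes described here had intervals that included 0. Rag1 had signals of 14715.4 and 12491.4 on the overnight control arrays and 11783.5 and 9392.4 on the Valpha2 arrays, and its fit was -0.37 with an interval from -1.18 to 0.44. Both Valpha2 arrays were below both control arrays, by 0.32 under Data 1 and 0.41 under Data 2. Rag2 had 737.4 and 1184.8 against 931.1 and 692.3, which overlap, with a fit of -0.22 (-1.41 to 0.98). The Vbeta5 differences from the same control arrays were -2.44 for Rag1 and -3.65 for Rag2 (adjusted p 0.017 and 0.015 by limma). Both lay outside the Valpha2 intervals, again without a test between the antibodies. Cd4 had a fit of -0.40 (-1.16 to 0.36), and its 2 differences were -0.37 and -0.43. Cd8a, with 6234.1 and 6104.9 against 8257.1 and 6137.8, had a fit of 0.21 (-0.33 to 0.74). Cd8b1 (-0.11), Dntt (-0.14) and Ptcra, the surrogate alpha chain of the pre-TCR (-0.53), were the others, and the other Dntt probe sets gave 0.06 and -0.01. Without 1 array at a time Rag2 moved between -0.55 and 0.12, Cd4 between -0.74 and -0.062, Rag1 between -0.53 and -0.20, Ptcra between -0.87 and -0.19, Cd8a between -0.0073 and 0.42, Cd8b1 between -0.24 and 0.027 and Dntt between -0.45 and 0.17.

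**Figure D3:**
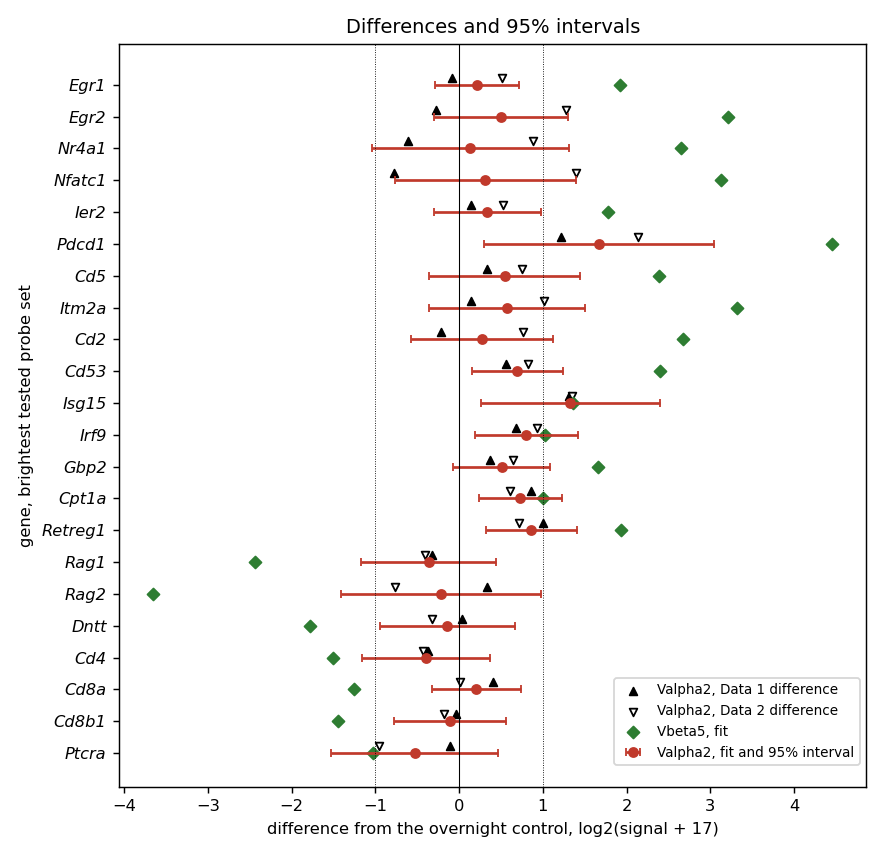
Valpha2 minus overnight control difference on the log2(signal + 17) scale for 22 genes, with the fit and its 95% interval in red, the Data 1 and Data 2 differences as upward and downward triangles, and the Vbeta5 fit against the same control arrays as green diamonds. Dotted lines mark 2-fold, and the Vbeta5 values of Egr1, Egr2, Rag1 and Rag2 lie outside their Valpha2 intervals, without a test between the antibodies.

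The size of response that the arrays leave possible depended on the brightness of the probe set. The median half-width of the 95% interval was 0.838, a factor of 1.79, and the middle 90% of the probe sets had half-widths between 0.502 and 1.498. The interval lay wholly inside a 2-fold change either way for 43.6% of the 8281 probe sets: 4.71% of the dim group, 44.8% of the middle group and 81.2% of the bright group. It lay inside a 4-fold change for 92.3%: 81.9%, 95.8% and 99.3%. A 2-fold rise lay outside the interval for 70.5% of the probe sets and a 2-fold fall for 60.9%, and a 4-fold rise for 97.1% and a 4-fold fall for 95.1%. No interval lay wholly beyond a 2-fold change in either direction. Between the 2 arrays of a group, the SD of the differences was 0.648 for Valpha2 and 0.857 for overnight control. It was 0.517 for control and 0.620 for Vbeta5, which also entered the estimate of the spread. With only the 4 arrays compared, 33.3% of the intervals lay inside 2-fold and 88.0% inside 4-fold, with a median half-width of 0.978. Each interval is for 1 probe set; intervals that hold for all 8281 at once had a median half-width of 3.16, so 0% lay inside 2-fold and 3.997% inside 4-fold.

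For the 24 measured genes of TCR response and stage, a 2-fold rise lay outside the interval of 15, a 2-fold fall outside that of 17, and both outside that of 10. A 4-fold change either way lay outside the interval of 23, and Pdcd1 was the exception, with an upper bound of 8.26-fold. The interval of Egr1 allowed at most 1.64-fold higher and that of Egr2 at most 2.46-fold, both as folds of signal + 17. For Nr4a1 the bounds were 0.485-fold and 2.47-fold, and for Rag1 0.443-fold and 1.36-fold. These bounds rest on 2 arrays a group, and the percent of all intervals inside 2-fold went from 43.6 to 20.3 without the Data 2 Valpha2 array, 24.7 without the Data 1 Valpha2 array and 25.1 without the Data 2 overnight control array.

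**Figure D4:**
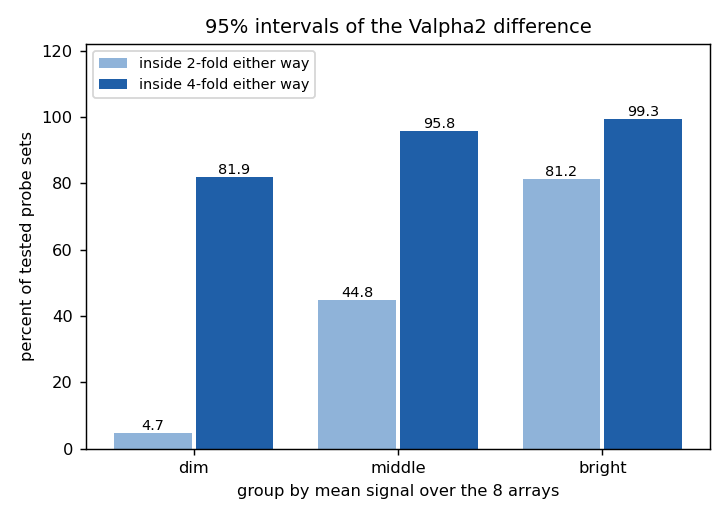
Percent of tested probe sets, in 3 groups by mean signal, whose 95% interval of the Valpha2 minus overnight control difference lies inside a 2-fold (light) or 4-fold (dark) change either way. The light bars go from 4.71% in the dim group to 81.2% in the bright group.

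In the lists of pathway genes, medians were small and often differed in sign between the Data numbers. Over all 6102 genes with a tested probe set, the median difference was -0.03 under Data 1 and 0.01 under Data 2, with 1305 genes higher in both and 1313 lower in both. No member of any list passed the test. The early TCR response list (24 genes) had a median of -0.31 under Data 1 and 0.27 under Data 2, with 6 and 17 genes higher, and 2 genes were higher in both: Id2 and Ier2. Ier2, an immediate early gene, had signals of 417.7 and 533.0 on the overnight control arrays and 461.9 and 776.0 on the Valpha2 arrays. The double positive stage list (23 genes) had medians of 0.10 and -0.22.

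The interferon response list (33 genes) held 14 genes higher in both and 5 lower in both. For 10 of the 33 both Valpha2 arrays lay above both overnight control arrays, and for 2 below, beside 691 and 597 of the 6102 genes. The medians were 0.00 under Data 1 and 0.38 under Data 2. Besides Isg15 and Irf9, the guanylate-binding protein Gbp2 had 324.3 and 243.8 against 425.0 and 389.7, without overlap (fit 0.51 ± 0.26). Usp18, which removes Isg15 from proteins, had 124.9 and 7.2 against 156.2 and 125.8, and Irf1, a first-wave factor of the interferon response, had 332.4 and 236.2 against 200.8 and 503.3. Usp18 was thus dim on 1 overnight control array only, and Irf1 differed in direction between the Data numbers.

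The oxidative phosphorylation list (54 genes) held 26 genes higher in both and 4 lower in both, and 19 with both Valpha2 arrays above both control arrays against 2 below. Of all 6102 genes, 1305 were higher and 1313 lower in both, with 691 above and 597 below without overlap. Its median was 0.35 under Data 1 and 0.03 under Data 2. Ndufb5, a complex I subunit, had 3084.6 and 3392.8 against 4681.7 and 3845.0, and Cox5b, a subunit of cytochrome oxidase, 885.5 and 1082.0 against 1359.2 and 1189.0. Both differed more under Data 1 (0.60 and 0.61) than under Data 2 (0.18 and 0.13). The inhibitory and costimulatory receptor list (20 genes) held 10 higher in both and 1 lower in both, with 7 and 0 not overlapping. Cd27, a costimulatory receptor, had 3343.0 and 3564.8 against 4514.2 and 4470.9 (fit 0.38 ± 0.21), and Ly9, a receptor of the SLAM family, 379.7 and 419.1 against 480.0 and 564.7.

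**Figure D5:**
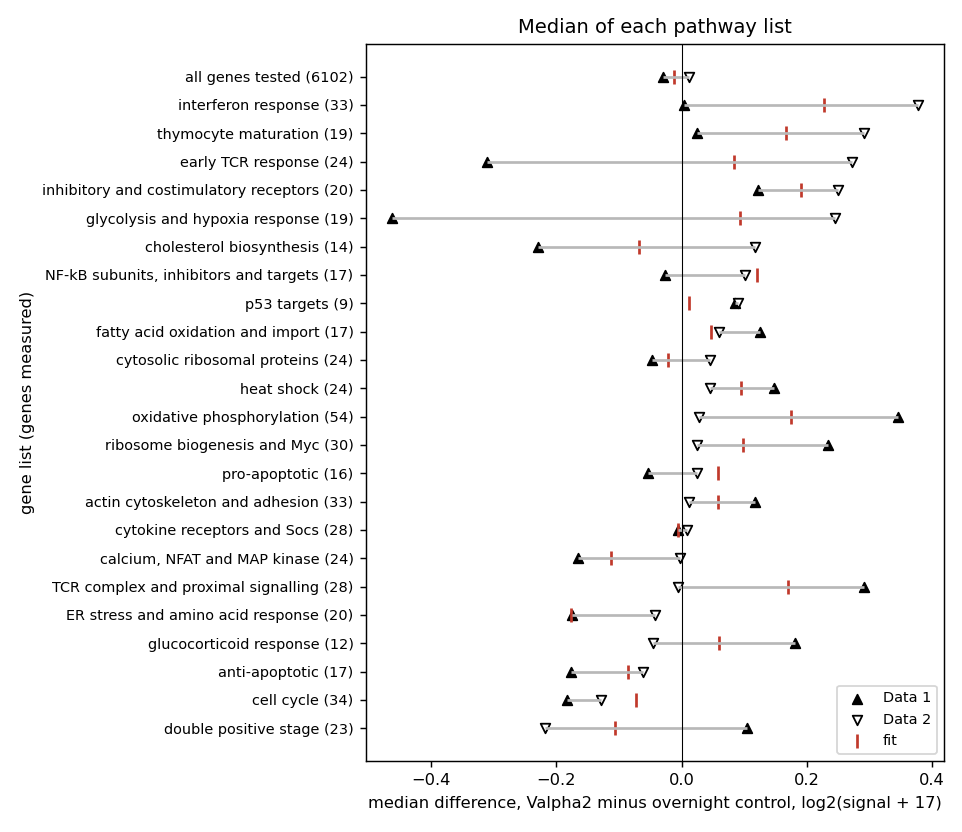
Median Valpha2 minus overnight control difference, on the log2(signal + 17) scale, of the measured genes of 23 pathway lists and of all 6102 genes, with the Data 1 median as an upward triangle, the Data 2 median as a downward triangle and the median of the fit as a red bar. The early TCR response list spans -0.31 to 0.27 and the glycolysis and hypoxia list -0.46 to 0.25, while all genes lie at -0.03 and 0.01.

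The cell cycle list (34 genes) held 13 genes lower in both and 4 higher in both, with 9 below and 1 above without overlap, beside 1313 lower in both, 1305 higher in both, 597 below and 691 above of all 6102 genes. Tk1 (thymidine kinase) had 225.7 and 172.2 on the overnight control arrays and 59.0 and 144.8 on the Valpha2 arrays, and Ccna2 (cyclin A) had 406.8 and 314.2 against 245.3 and 262.9. The medians were -0.18 and -0.13. In the TCR complex and proximal signalling list (28 genes) the medians were 0.29 and -0.01. Its non-overlapping genes were 4 of 28, all above, beside 691 above and 597 below of all 6102 genes, and included Zap70, the kinase of the receptor, with 3478.5 and 4118.7 against 4760.8 and 4595.7 (fit 0.30 ± 0.23; its dimmest probe set gave -0.25), and the adaptor Sh2d2a with 941.1 and 1020.5 against 1330.5 and 1351.3 (fit 0.45 ± 0.22).

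In the glycolysis and hypoxia list, 15 of 19 genes had a higher signal on the Data 1 than on the Data 2 overnight control array, beside 3179 of all 6102 genes. Its median was -0.46 under Data 1 and 0.25 under Data 2, with 5 and 15 genes higher. Tpi1, a glycolytic enzyme, had signals of 1994.8 and 333.0 on the overnight control arrays and 753.9 and 865.1 on the Valpha2 arrays. Aldoa (aldolase) had 4079.7 and 740.2 against 2102.7 and 1967.5. Slc2a3, a glucose transporter, had 201.0 and 59.5 against 46.8 and 83.8 on the brighter of 2 probe sets. In Tpi1 and Aldoa both Valpha2 arrays lay between the 2 overnight control arrays, so the Data 1 difference was below 0 and the Data 2 difference above 0.

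The heat shock list (24 genes) held 11 genes higher in both and 2 lower in both, with medians of 0.15 and 0.05. The ribosome biogenesis and Myc list (30 genes) held 10 and 4, with medians of 0.23 and 0.02. Of all 6102 genes, 1305 were higher and 1313 lower in both.

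Bcl2l11 and Bcl2l1, a death and a survival gene of the same family, had intervals that included 0. Bcl2l11 (Bim, which is needed to delete thymocytes) had 1477.9 and 977.2 on the overnight control arrays against 1640.3 and 1597.5 on the Valpha2 arrays, without overlap and with a fit of 0.42 ± 0.27, but its 2 dimmer probe sets differed by -0.20 and -0.96. Bcl2l1 (Bcl-xL, which keeps double positive cells alive) had 1535.9 and 1973.4 against 1334.4 and 1638.8, with a fit of -0.23 ± 0.26.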

How the data were processed

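The authors deposited 1 table of linear signal intensity for 12488 probe sets on 8 arrays, which per the labels is normalized; the sources used here do not give the software, scaling or build. Control probe sets (66) were left out, the values were used without further normalization, log2(intensity + 17) was taken (17, the rounded 20th percentile of positive intensities), and the dimmest 33.3% by mean over the 8 arrays was left out. The 8281 others were tested with limma 3.58.1 in R 4.3.3: 1 mean per group in 1 fit of 8 arrays, eBayes with a variance trend (4 residual, 6.44 prior degrees of freedom), Benjamini-Hochberg at 0.05. The mean signal per array, trimmed of its extremes, ran from 250.14 to 250.161, so the arrays shared a level by that measure. The median signal per array ran from 73.8 to 110.35. The number of arrays limits the precision. The script was checked on simulated data.

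Probe sets were named from the platform annotation, with symbols updated through a RefSeq table (GRCm38.p6): 10833 probe sets had 1 gene symbol, 396 several and 1193 none. A list took the brightest probe set of each gene. Named genes were 28 chosen genes, the 5 smallest p in each direction, up to 10 in each direction beyond 2-fold in both Data numbers without overlap, the 5 largest opposite differences, and up to 3 of each list and direction by p; others were named after their values were seen. The members, lists and rules were chosen with earlier results of these data known. Alternatives tried were a replicate block, no trend, only the 4 arrays, leaving out arrays, quantile or median scaling, a smaller offset, a floor and other filters.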

Additional observations from a re-analysis of the deposited data

How the results depend on the processing

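The count of probe sets called stayed 0 in both directions under quantile normalization, a common median, a smaller offset, a floor, both other filters, eBayes without the trend and only the 4 arrays compared. Without the 3 Data 1 arrays of overnight control, Valpha2 and Vbeta5, added after seeing the data, 0 were called too, but the spread then came from the control pair alone, with 1 residual degree of freedom, so this says nothing of stability. Leaving out 1 array at a time gave 0 higher and between 0 and 1 lower. At unadjusted p under 0.05 the count of 132 was 261 without a filter, 81 with a stricter one and 55 with only the 4 arrays. With a replicate block for the Data number 0 were called (235 at unadjusted p under 0.05, by limma) and 50.9% of the intervals lay inside 2-fold; deviations of same-numbered arrays from their group means correlated at r = 0.347, and with 2 pairs the numbers were not taken as pairs. Agreement at 2-fold (18 higher, 17 lower, 62 opposite) became 28, 30 and 101 with a smaller offset, 37, 48 and 146 with a floor, 36, 37 and 106 without a filter, and 5, 4 and 25 with a stricter filter; at 1.5-fold it was 76, 131 and 381. The causes were not tested. The percent of intervals inside 2-fold lay between 20.3 and 35.5 without 1 array, and inside 4-fold between 79.7 and 88.0. With only the 4 arrays compared the percents were 33.3 and 88.0, and for all probe sets at once 0 and 3.997. Of the genes with a fit in the text, those whose sign turned did so only without 1 array: Nr4a1 (-0.88 to 1.14), Nfatc1 (-0.61 to 1.23), Itm2a (-0.15 to 1.29), Cd5 (-0.13 to 1.22), Cd2 (-0.43 to 0.97), Rag2 (-0.55 to 0.12), Cd8a (-0.0073 to 0.42), Cd8b1 (-0.24 to 0.027) and Dntt (-0.45 to 0.17). Signals near the offset of 17 have little precision, which limits the dim genes most.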
